A study of Homo sapiens with 19 samples.

Results

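The forkhead genes outside the FOXA subfamily were followed through PRC2 knockout human embryonic stem cells (hESCs). The set held 33 genes, FOXB1, FOXC1 and FOXC2, FOXD1 to FOXD3, FOXE1 and FOXE3, FOXF1 and FOXF2, FOXI1, FOXJ1 to FOXJ3, FOXK1 and FOXK2, FOXL1 and FOXL2, FOXM1, FOXN1 to FOXN4, FOXO1, FOXO3, FOXO4 and FOXO6, FOXP1 to FOXP4, FOXQ1 and FOXS1. They were picked by gene symbol, and all 33 were found among the 33382 genes of each sample.

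Forkhead proteins are transcription factors that share a winged-helix DNA-binding domain. Many of them are master regulators of single organs or tissues and are silent in pluripotent cells, where their CpG-rich promoters are classical sites of the repressive histone mark H3K27me3. PRC2 is the complex that writes this mark, with EZH1 or EZH2 as its catalytic subunit and with EED and SUZ12 as its core partners. Other forkhead factors, such as FOXM1 of the cell cycle and the insulin-responsive FOXO proteins, are expressed in most dividing cells.

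RNA was sequenced from H1 cells, an established hESC line, and from H1 cells in which a domain of a PRC2 gene had been replaced by a drug-resistance cassette on both alleles. There were 2 samples each of wild type (WT), EZH1-/-, EZH2-/-, EED-/-, SUZ12-/- and EZH2-/-/EZH1-/- cells. EED-/-, SUZ12-/- and EZH2-/-/EZH1-/- cells are called PRC2-null here and the other lines H3K27me3-retaining, following the study. The study reported less H3K27me3 in EZH1-/- and EZH2-/- cells than in WT cells, and spontaneous differentiation of the PRC2-null lines. A further line, H1-EED-/-/EED-OE, lacked endogenous EED and carried an EED transgene that doxycycline (DOX) switches on. It gave 1 sample kept on DOX and 1 sample at each of days 8, 12, 16, 20, 24 and 28 without DOX. The label of the DOX sample also carries day 28, and every day is set against this 1 sample. The study kept more than 1 clone of each knockout, and the samples of a knockout line carry different names, but the sources used here do not say which clone or culture each sample came from. The p-values therefore measure the spread between these samples, which may be clonal or technical.

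Values are TPM, transcript abundances scaled for gene length and library total, which can be compared between genes. The files hold no read counts, so the depth of a sample is unknown, and a gene given as 0 is only listed at 0. PRC2-null samples had 21326 to 23012 genes above 0, retaining samples 20350 to 21564 and DOX samples 19117 to 20107. The whole-gene TPM of the targeted genes did not check the deletions, which remove only a domain: none of the 4 was called lower in its own knockout, where log2 differences from WT ranged from -1.15 for EZH2 in EZH2-/-/EZH1-/- cells to 0.06 for EZH1 in EZH1-/- cells, and EED was 14.25 and 22.36 in EED-/- cells and 17.3 and 21.96 in WT cells. The transgene was visible, since EED was 108.54 on DOX and 12.64 to 31.56 without it. Markers of hESCs separated the lines. The summed TPM of 12 pluripotency genes was 233 to 572 in PRC2-null samples and 6567 to 7852 in retaining samples, and 11 of the 12 were called lower and none higher, with a median difference of -4.38. The markers of the cell type on the labels were thus low in PRC2-null samples. In such bulk RNA, fewer cells of a type and less RNA per cell cannot be told apart.

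Forkhead genes of mesoderm and mesenchyme were switched on in the PRC2-null lines, whereas FOXD3 and FOXM1 fell. A gene was called when its mean log2(TPM + 1) differed by at least log2 of 3 in a limma fit of the 12 line samples with the false discovery rate held at 1%. Between PRC2-null and retaining lines (6 samples each), 12 forkhead genes were called higher and 2 lower among the 29 that could be tested, and 13.5% of the 19100 genes tested were called higher and 5.09% lower. The median difference was 1.01 over the 29 forkhead genes and 0.29 over all genes. This general shift shrank to 0.08 after median-ratio scaling of the samples, and 11 forkhead genes were then called higher and 2 lower. Among all 19100 genes, 2122 were called higher and 1261 lower after this scaling. Tested against the 3-fold itself, FOXC1, FOXE1, FOXK1, FOXP2 and FOXP4 were no longer called, with adjusted p = 0.80, 0.025, 1.0, 0.11 and 0.063 in limma. FOXE3, FOXI1, FOXN1 and FOXN4 did not pass the filter on low values. Another 11 passed it only because they were expressed in PRC2-null samples (FOXC1, FOXC2, FOXD1, FOXD2, FOXE1, FOXF1, FOXF2, FOXL1, FOXP2, FOXQ1 and FOXS1), so their counts and medians are a description and no independent support.

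**Figure D1:**
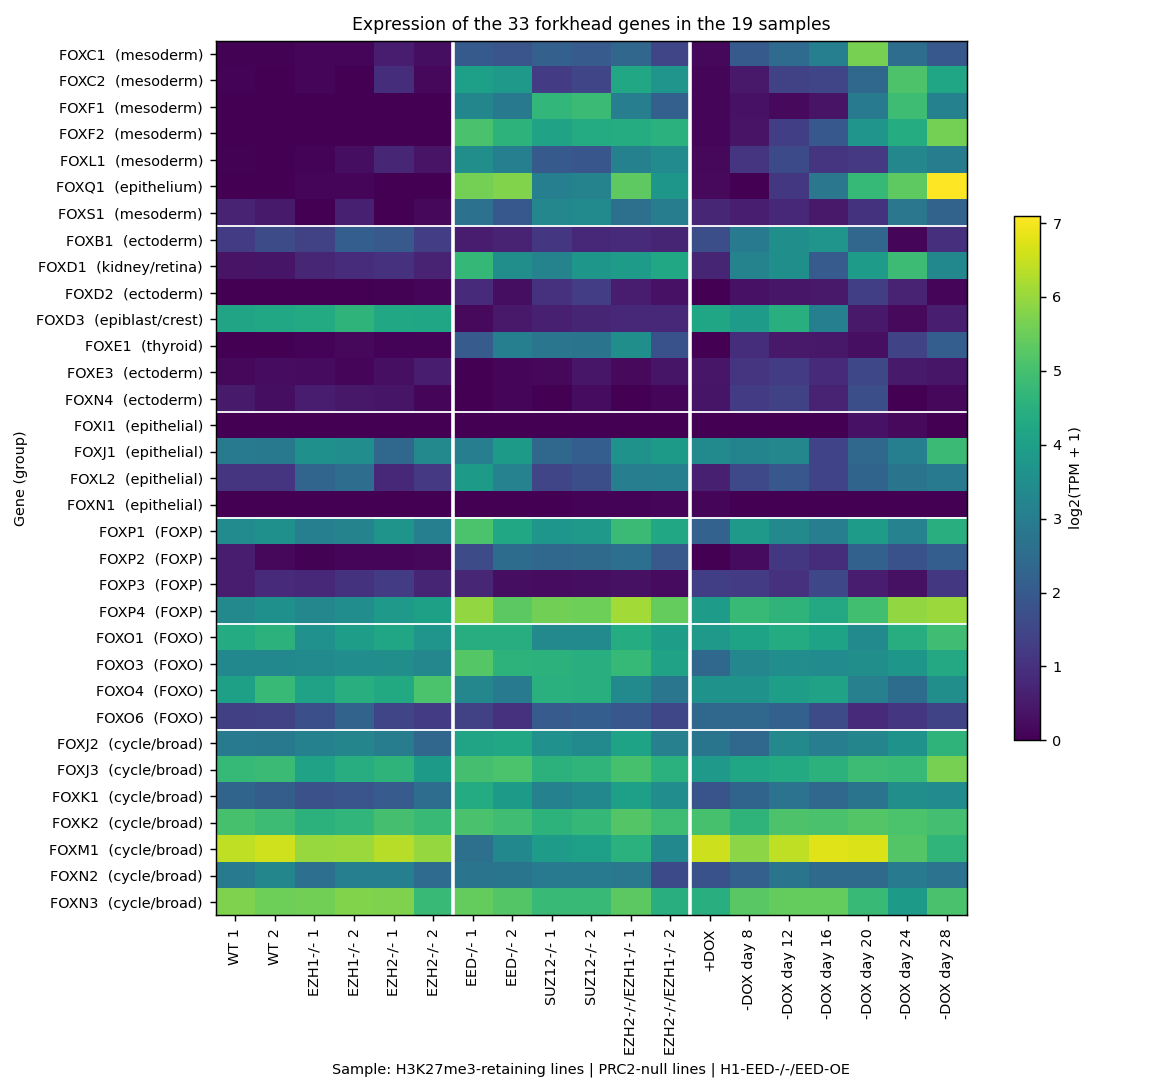
Each row is 1 of the 33 forkhead genes, grouped by the tissue or process it is known for, each column is 1 of the 19 samples, and the colour gives log2(TPM + 1). The first 7 genes are dark in the 6 retaining samples and brighter in the 6 PRC2-null samples and at the late days without DOX. FOXC1 in the PRC2-null samples and FOXC2 in SUZ12-/- cells are only a little brighter. FOXD3 and FOXM1 show the reverse, bright in retaining samples and darker in PRC2-null samples.

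**Figure D2:**
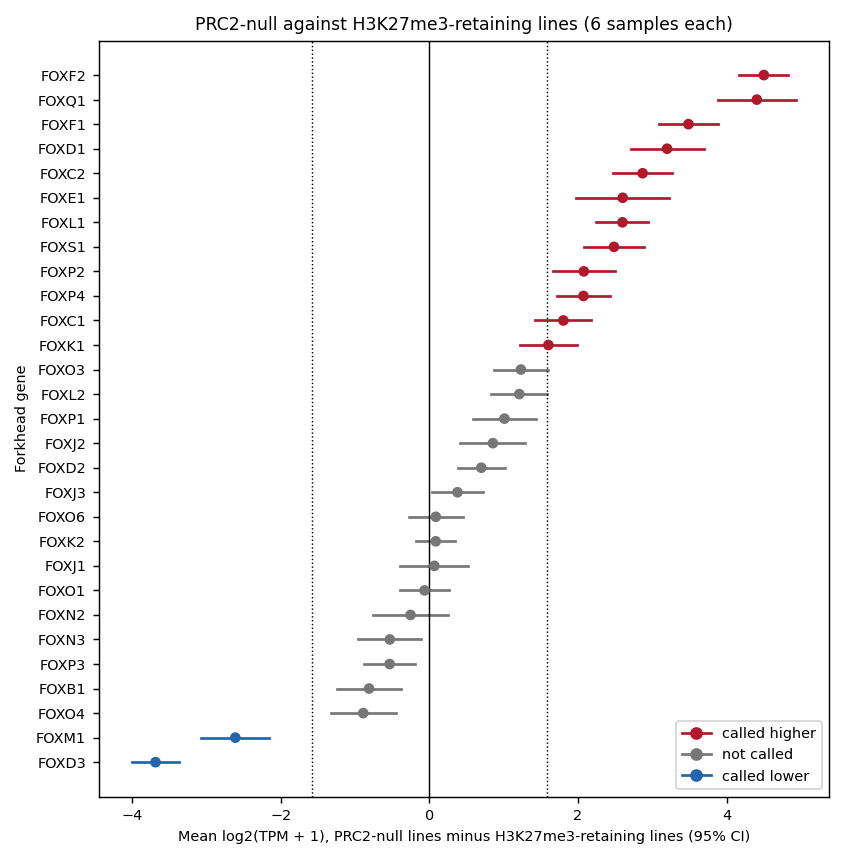
Points give the difference in mean log2(TPM + 1) between PRC2-null and retaining lines with its 95% confidence interval for the 29 forkhead genes tested, and dotted lines mark the log2 of 3. FOXF2 lies highest at 4.50 and FOXD3 lowest at -3.69; 12 genes in red were called higher and 2 in blue lower.

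FOXC1, FOXC2, FOXF1, FOXF2, FOXL1 and FOXS1, genes of mesoderm and mesenchyme, were all called higher, and so was FOXQ1, a gene best known from epithelia that is described with them as a neighbour of FOXF2. All of these but FOXS1 stand in groups of neighbours on chromosomes 6 and 16. On chromosome 6 (GENCODE 44 on GRCh38), FOXQ1 (ENSG00000164379, chr6:1312098-1314758), FOXF2 (ENSG00000137273, chr6:1389576-1395603) and FOXC1 (ENSG00000054598, chr6:1609915-1613897) follow each other on the plus strand, with starts 77.5 and 220.3 kb apart. Their RefSeq promoters are shown because all 3 neighbours were called higher, beside that of FOXD3, the gene that fell most. Each line holds the 250 bases before the annotated start on the plus strand of GRCh38.p14, and capitals mark CpG dinucleotides, 29 in FOXQ1 (chr6:1311848-1312097), 20 in FOXF2 (chr6:1389326-1389575), 37 in FOXC1 (chr6:1609665-1609914) and 24 in FOXD3 (chr1:63322317-63322566).
FOXQ1: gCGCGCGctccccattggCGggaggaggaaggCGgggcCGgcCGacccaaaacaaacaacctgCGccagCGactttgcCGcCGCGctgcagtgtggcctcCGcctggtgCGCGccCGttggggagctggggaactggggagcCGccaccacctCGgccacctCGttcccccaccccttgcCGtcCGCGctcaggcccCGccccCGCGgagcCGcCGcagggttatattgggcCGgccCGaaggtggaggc
FOXF2: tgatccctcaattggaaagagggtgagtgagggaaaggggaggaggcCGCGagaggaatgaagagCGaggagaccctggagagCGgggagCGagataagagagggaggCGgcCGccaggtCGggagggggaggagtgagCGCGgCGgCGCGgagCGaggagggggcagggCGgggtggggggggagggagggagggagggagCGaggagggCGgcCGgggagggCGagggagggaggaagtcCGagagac
FOXC1: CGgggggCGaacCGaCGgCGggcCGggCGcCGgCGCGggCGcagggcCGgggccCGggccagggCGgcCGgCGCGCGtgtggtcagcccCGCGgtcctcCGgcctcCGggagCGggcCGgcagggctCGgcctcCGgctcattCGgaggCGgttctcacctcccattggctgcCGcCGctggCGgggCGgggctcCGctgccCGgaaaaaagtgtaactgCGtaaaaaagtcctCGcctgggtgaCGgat
FOXD3: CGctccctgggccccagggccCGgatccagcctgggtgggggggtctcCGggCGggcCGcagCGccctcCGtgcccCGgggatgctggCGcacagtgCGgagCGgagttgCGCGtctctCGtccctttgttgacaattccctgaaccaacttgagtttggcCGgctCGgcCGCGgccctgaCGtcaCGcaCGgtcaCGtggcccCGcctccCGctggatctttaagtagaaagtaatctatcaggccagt

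FOXF2 and FOXQ1 had the largest differences of the forkhead genes tested, whereas FOXC1 had the smallest of these 7. FOXQ1, known from hair follicle and stomach epithelium and from mesenchymal transition of carcinoma cells, was listed at 0 in both WT and both EZH2-/- samples and at 0.09 and 0.08 TPM in EZH1-/- samples. In PRC2-null cells it was 47.97 and 52.59 in EED-/-, 7.35 and 8.03 in SUZ12-/- and 39.48 and 12.46 in EZH2-/-/EZH1-/- samples. The groups were thus far apart, and within the PRC2-null group SUZ12-/- cells were lowest. The difference on the log2(TPM + 1) scale was 4.41 ± 0.24 (SE; limma adjusted p = 6.5e-08).

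FOXF2, a regulator of gut and palate mesenchyme and of brain pericytes, was listed at 0 in all 6 retaining samples. It reached 32.08 and 23.23 TPM in EED-/-, 15.89 and 19.63 in SUZ12-/- and 19.97 and 22.17 in EZH2-/-/EZH1-/- cells. No fold can be given against 0, and on the log2(TPM + 1) scale the difference was 4.50 ± 0.15 (adjusted p = 3.0e-09). The 3 null lines lay close together for this gene, unlike for FOXQ1. A divergent transcript next to it, FOXF2-DT (matched by its Ensembl identifier), was also listed at 0 in all retaining samples and was 0.64 to 2.05 in PRC2-null samples.

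FOXC1, needed for the eye, skull and blood vessels, stayed low. It was 0.03 in both WT samples, 0.08 and 0.07 in EZH1-/- and 0.49 and 0.19 in EZH2-/- cells. Its values were 3.01 and 2.65 in EED-/-, 3.56 and 3.13 in SUZ12-/- and 4.04 and 1.82 in EZH2-/-/EZH1-/- cells. The groups did not overlap, with a difference of 1.80 ± 0.17 (adjusted p = 4.0e-06), and its level in null lines was the lowest of the 3 neighbours.

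On chromosome 16, FOXF1 (ENSG00000103241, chr16:86510527-86515422), FOXC2 (ENSG00000176692, chr16:86566829-86569728) and FOXL1 (ENSG00000176678, chr16:86576368-86583478) are spaced by 56.3 and 9.5 kb. The noncoding RNA FENDRR starts 1.4 kb from FOXF1 in the other direction. All of them were higher in PRC2-null cells, but the lines took a different order at each end of the group. FOXF1, a regulator of lung and gut mesenchyme and of their vessels, was listed at 0 in every retaining sample. It was 8.61 and 6.37 in EED-/-, 25.04 and 27.9 in SUZ12-/- and 7.21 and 3.54 in EZH2-/-/EZH1-/- cells, a difference of 3.49 ± 0.18 (adjusted p = 4.1e-08). Both SUZ12-/- samples stood above the other 10 of the lines. FENDRR had the same order, with 1.85 and 1.48 in EED-/-, 23.86 and 22.68 in SUZ12-/- and 2.25 and 0.63 in EZH2-/-/EZH1-/- cells, and 0 in every retaining sample. MTHFSD, which lies between FOXF1 and FOXC2, was 5.58 to 9.6 in retaining and 12.55 to 25.55 in null samples, with no overlap. The noncoding LINC02188, beyond FOXL1, was 0.6 to 1.86 in retaining and 0.26 to 1.6 in null samples, which overlapped. Both were named after their values were seen. Of 7 noncoding or neighbouring transcripts named for a forkhead gene and tested, 2 were called higher (FENDRR and FOXD1-AS1) and 1 lower (FOXD3-AS1), with a median of 0.27.

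FOXC2, known for lymphatic vessels and their valves, behaved in the opposite way. It was 15.18 and 13.12 in EED-/- and 17.8 and 11.94 in EZH2-/-/EZH1-/- cells but only 1.33 and 1.78 in SUZ12-/- cells. Retaining samples had 0.04 and 0 in WT, 0.06 and 0 in EZH1-/- and 0.91 and 0.12 in EZH2-/- cells, so SUZ12-/- cells were close to the upper end of these. The difference over all lines was 2.87 ± 0.18 (adjusted p = 1.9e-07). FOXL1, a marker and regulator of the mesenchymal cells under the gut epithelium, was 10.41 and 7.4 in EED-/-, 3.05 and 2.75 in SUZ12-/- and 7.75 and 9.81 in EZH2-/-/EZH1-/- cells. In retaining cells it was 0.03 and 0 in WT, 0.04 and 0.19 in EZH1-/- and 0.7 and 0.29 in EZH2-/- samples. The groups were separate, with a difference of 2.60 ± 0.16 (adjusted p = 1.4e-07).

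FOXS1, reported in pericytes and in the peripheral nervous system, completed this set. It was 0.59 and 0.44 in WT, 0 and 0.54 in EZH1-/- and 0 and 0.12 in EZH2-/- cells. In PRC2-null lines it was 5.33 and 2.85 in EED-/-, 8.78 and 9.42 in SUZ12-/- and 5.16 and 6.93 in EZH2-/-/EZH1-/- cells, a difference of 2.48 ± 0.19 (adjusted p = 6.6e-07). As for FOXF1, SUZ12-/- cells were highest.

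Most markers of mesenchyme and vessels moved with these genes. Of 16 such markers, 13 were called higher and none lower, and their median difference was 3.37. Their summed TPM was 2278 to 14402 in PRC2-null samples and 87.7 to 201 in retaining samples, and HAND1 and HAND2 were listed at 0 in every retaining sample. The largest differences were 11.59 for COL3A1, 6.04 for COL1A1 and 5.10 for PECAM1. The sum was highest in SUZ12-/- cells, at 14402 and 14172, where FOXF1, FENDRR and FOXS1 were highest too, but COL3A1 alone was 11279 and 11055 of it. Without COL3A1, a sum taken after the values were seen, SUZ12-/- samples had 3123 and 3117 and the other null samples 1317 to 5503, with the first EED-/- sample highest. The endothelial genes PECAM1 and CDH5 were called lower in SUZ12-/- than in EED-/- cells, by -2.26 ± 0.40 and -2.38 ± 0.40. Of the vessel markers, PECAM1, CDH5 and ERG were called higher in null than in retaining lines, and KDR and TEK were not called. The sum of these vessel markers, also taken after the values were seen, overlapped between the groups. It was 52.4 to 489 in PRC2-null and 45.7 to 144 in retaining samples. The part of other cell types in the forkhead values was not tested.

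Of FOXB1, FOXD1 to FOXD3, FOXE1, FOXE3 and FOXN4, a mixed group with roles in nervous system, sense organs, kidney and thyroid, FOXD1 and FOXE1 were called higher and FOXD3 lower, and FOXE3 and FOXN4 could not be tested. FOXD1, a gene of kidney stroma and retina, was 0.3 and 0.31 in WT, 0.71 and 0.86 in EZH1-/- and 1 and 0.59 in EZH2-/- cells. It was 25.54 and 10.39 in EED-/-, 7.97 and 12.51 in SUZ12-/- and 14.14 and 17.66 in EZH2-/-/EZH1-/- cells. Every PRC2-null sample lay above every retaining sample, with a difference of 3.20 ± 0.22 (adjusted p = 3.9e-07). An antisense RNA, FOXD1-AS1, lies within FOXD1 (chr5:73446357-73446984). It was 7.19 to 20.1 in 5 PRC2-null samples and 0 in the second EZH2-/-/EZH1-/- sample. Counting was not stated to use strand, so reads of an antisense pair cannot be told apart.

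FOXE1, the thyroid forkhead factor, was listed at 0 in both WT samples, at 0.04 and 0.12 in EZH1-/- and at 0.04 in both EZH2-/- samples. It was 3.1 and 7.3 in EED-/-, 5.93 and 5.68 in SUZ12-/- and 10.56 and 2.46 in EZH2-/-/EZH1-/- cells, a difference of 2.60 ± 0.28 (adjusted p = 1.2e-05). The samples of EZH2-/-/EZH1-/- cells spanned the range of all PRC2-null samples.

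FOXD3 (ENSG00000187140, chr1:63322567-63325128), which maintains pluripotent epiblast and later neural crest, fell most. It was 16.83 and 18.05 in WT, 19.43 and 23.4 in EZH1-/- and 17.81 and 16.88 in EZH2-/- cells. In PRC2-null cells it was 0.13 and 0.39 in EED-/-, 0.53 and 0.68 in SUZ12-/- and 0.77 and 0.73 in EZH2-/-/EZH1-/- cells. The difference was -3.69 ± 0.14 (adjusted p = 6.6e-09), and no sample of a null line reached 1 TPM. The overlapping antisense RNA FOXD3-AS1 fell by 5.96 on the same scale, from 190 to 313 TPM in retaining samples to 1.28 to 5.22 in PRC2-null samples, with the same limit on strand. The FOXD3 promoter window, printed above, has a CpG number between those of FOXF2 and FOXQ1, which rose.

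FOXB1, a gene of diencephalon and hindbrain, was 1.37 to 3.32 in retaining and 0.47 to 1.19 in PRC2-null samples and was not called at -0.81 ± 0.19. FOXD2 did not exceed 0.06 in retaining samples and was 0.2 to 1.45 in null samples, a difference of 0.70 ± 0.14 that did not reach the fold required. FOXE3 of the lens, whose start lies 21.8 kb from that of FOXD2, did not exceed 0.46 in any of the 12 samples, and FOXN4 of the retina did not exceed 0.45.

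Among the 4 genes of epithelia and single organs, none was called in this comparison. FOXL2, the ovarian granulosa cell factor, was 1.12 and 1.13 in WT, 4.01 and 4.85 in EZH1-/- and 0.77 and 1.25 in EZH2-/- cells. It was 13.71 and 7.92 in EED-/-, 1.8 and 2.24 in SUZ12-/- and 7.15 and 7.3 in EZH2-/-/EZH1-/- cells. The groups overlapped, since EZH1-/- samples lay above SUZ12-/- samples, and the difference of 1.21 ± 0.17 was below the fold required. FOXJ1, which drives the motile cilium program, was 4.2 to 10.72 in retaining and 3.39 to 13.74 in PRC2-null samples (difference 0.07 ± 0.21). Of 16 motile cilium genes tested, 2 were called higher and none lower, with a median of 0.12. FOXI1 was listed at 0 in all 12 samples, and FOXN1, the thymic epithelium factor, did not exceed 0.09.

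In the FOXP subfamily, FOXP2 and FOXP4 were higher. FOXP2, known for speech circuits and lung epithelium, was 0.47 and 0.11 in WT, 0.02 and 0.06 in EZH1-/- and 0.1 and 0.11 in EZH2-/- cells. It was 2.16 and 4.66 in EED-/-, 4.18 and 4.51 in SUZ12-/- and 5.06 and 2.95 in EZH2-/-/EZH1-/- cells (difference 2.08 ± 0.19, adjusted p = 3.1e-06). The lowest null sample was thus above the highest retaining sample.

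FOXP4 was already expressed in retaining cells, unlike FOXP2. It was 9.1 and 10.8 in WT, 8.75 and 10.12 in EZH1-/- and 13 and 15.48 in EZH2-/- cells, against 60.28 and 39.08 in EED-/-, 47.35 and 45.45 in SUZ12-/- and 68.66 and 42.03 in EZH2-/-/EZH1-/- cells (difference 2.07 ± 0.16, adjusted p = 9.9e-07). FOXP1, a gene with an alternative hESC isoform that gene-level values do not resolve, was 7.31 to 11.7 in retaining and 12.16 to 33.15 in null samples. These ranges did not overlap, but the difference of 1.01 ± 0.19 was below the fold required. FOXP3 of regulatory T cells did not exceed 1.39 and was not called at -0.54 ± 0.16.

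The 4 FOXO genes, whose proteins respond to insulin signalling, were expressed in every line and none was called. FOXO3 was 8.96 and 8.89 in WT, 9.27 and 10.23 in EZH1-/- and 10.36 and 8.67 in EZH2-/- cells. It was 36.12 and 22.95 in EED-/-, 22.43 and 21.1 in SUZ12-/- and 25.86 and 15.89 in EZH2-/-/EZH1-/- cells, so the groups did not overlap (difference 1.23 ± 0.17). FOXO3 has a near-identical copy elsewhere in the genome, and reads could be shared with it. FOXO1 was 11.07 to 22.43 in retaining and 9.06 to 20.57 in null samples (difference -0.07 ± 0.15). FOXO4 was 15.54 to 32.78 in retaining samples, and null samples were 21.52 and 21.41 in SUZ12-/- cells but 5.94 to 9.25 in the other null lines. FOXO6 was 1.4 to 3.75 and 1.01 to 3.32 in retaining and null samples.

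Of 17 genes linked to FOXO activity, 10 were called higher and 1 lower, with a median of 1.72. The largest differences belonged to the sestrin SESN3, at 3.85 ± 0.23, the cyclin CCNG2, at 3.28 ± 0.23, and the pyruvate dehydrogenase kinase PDK4, which was 0 to 0.27 TPM in retaining and 1.91 to 20.44 TPM in null samples. KLF15 was the one that fell, by 2.21. No FOXO gene was called in this comparison, and FOXO activity itself was not measured.

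Among cell cycle and broadly expressed forkhead genes, FOXM1 was called lower and FOXK1 higher. FOXM1 (ENSG00000111206, chr12:2857680-2877174), the activator of genes for the G2 phase and mitosis, was 84.82 and 94.93 in WT, 63.57 and 63.97 in EZH1-/- and 80.53 and 61.62 in EZH2-/- cells. It was 5.15 and 8.87 in EED-/-, 13.76 and 14.95 in SUZ12-/- and 22.32 and 9.03 in EZH2-/-/EZH1-/- cells. Every null sample was below every retaining sample, and the difference was -2.61 ± 0.21 (adjusted p = 1.1e-06). Of 16 mitotic genes linked to FOXM1, 13 fell and none was called higher, with a median of -2.68 and a summed TPM of 230 to 578 in null and 1755 to 2017 in retaining samples. The largest differences were -3.42 for AURKB, -3.35 for CENPF and -2.99 for KIF20A.

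FOXK1, a repressor of autophagy genes in fed cells, was 3.85 and 3.27 in WT, 2.39 and 2.68 in EZH1-/- and 3.07 and 4.76 in EZH2-/- cells. It was 19.67 and 13.75 in EED-/-, 7.67 and 8.86 in SUZ12-/- and 15.07 and 10.26 in EZH2-/-/EZH1-/- cells. Its difference of 1.60 ± 0.17 (adjusted p = 1.1e-05) was only just past the fold required and went below it under median-ratio scaling, at 1.37, and without any of 6 of the 12 samples in turn, at 1.52 to 1.58. Its paralogue FOXK2 was 22.44 to 32.06 in retaining and 23.01 to 35.82 in null samples (difference 0.08 ± 0.12). FOXJ2 and FOXJ3 had differences of 0.85 ± 0.20 and 0.38 ± 0.16, and FOXN2 and FOXN3 of -0.26 ± 0.23 and -0.53 ± 0.19, and none of these 4 was called.

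Across all tested forkhead genes, every PRC2-null sample was above every retaining sample for 15 of 29 and below for 3 of 29, and among all genes tested the shares were 24.2% and 13.3%. FOXB1, FOXD2, FOXO3 and FOXP1 were separate in this way without being called. The 15 include all 11 genes that passed the filter only through PRC2-null samples, so this count is a description and no independent support.

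Each knockout line was next compared with WT H1 cells. In EED-/- cells 14 forkhead genes were higher and 2 lower, with 16.2% and 6.09% of all genes called. Median-ratio scaling turned these into 10 higher and 3 lower forkhead genes, with 2311 of all 19100 genes called higher and 1672 lower. In SUZ12-/- cells 10 were higher and 2 lower (14.5% and 5.21% of all genes), and in EZH2-/-/EZH1-/- cells 12 and 2 (11.6% and 5.66%). FOXC1, FOXD1, FOXE1, FOXF1, FOXF2, FOXL1, FOXP2, FOXP4, FOXQ1 and FOXS1 were higher in all 3 null lines, and FOXD3 and FOXM1 were lower in all 3. FOXC2 and FOXL2 were higher in EED-/- and EZH2-/-/EZH1-/- cells, by 3.89 ± 0.32 and 2.43 ± 0.30 in the former and 3.93 ± 0.32 and 1.95 ± 0.30 in the latter. In SUZ12-/- cells FOXC2 had a difference of 1.32 ± 0.32 from WT. FOXK1, at 1.94 ± 0.30, and FOXO3, at 1.59 ± 0.29, were called only in EED-/- cells. FOXK1 was 1.56 ± 0.30 in EZH2-/-/EZH1-/- and 1.02 ± 0.30 in SUZ12-/- cells, and neither line was shown to differ from EED-/- cells in FOXK1 or FOXO3. Some of these calls needed all samples. In EED-/- cells against WT, that of FOXE1 was lost without the second EED-/- sample or either WT sample (differences of 2.04 to 2.54), that of FOXP2 without the second EED-/- or the second WT sample (1.31 and 1.52), and those of FOXS1 (1.35 and 1.63) and FOXO3 (1.27 and 1.58) without the first EED-/- or the second WT sample. FOXP1 gained a call, at 1.60, without the second EED-/- sample. In EZH2-/-/EZH1-/- cells, FOXE1 lost its call without either WT sample (2.66), FOXP2 without the second WT sample (1.73) and FOXC1 without the first EZH2-/-/EZH1-/- sample (1.45), whereas FOXK1 gained one, at 1.82, without the second and FOXO4 one, at -1.62, without the first. With only the 4 samples of the lines compared, 5 forkhead genes were called in EZH2-/-/EZH1-/- cells against WT. Of all 19100 genes, 801 were called higher and 306 lower in that fit.

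Loss of EZH1 or EZH2 alone called no forkhead gene in limma. At an unadjusted p under 0.05 there were 3 in EZH1-/- cells, FOXL2, FOXO1 and FOXO6, and 0 in EZH2-/- cells, of 29 tested, where 16.0% and 5.81% of all genes passed this p. At the usual threshold, 0.0576% of all genes were called higher and 0.0419% lower in EZH1-/- cells and 0.0% in EZH2-/- cells. The largest was FOXL2 in EZH1-/- cells, with a difference from WT of 1.35 ± 0.30 (adjusted p = 0.061). Its neighbour FOXL2NB was 11.1 and 17.51 in EZH1-/- cells and 3.32 and 3.61 in WT cells. EZH2-/- samples had the highest retaining values of FOXC1, FOXC2 and FOXL1, at 0.49, 0.91 and 0.7, all in the same sample.

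The null lines were compared with each other to describe how their forkhead patterns differed. Each knockout gave 2 samples of unstated clonal origin. An effect of the lost subunit therefore cannot be told apart from one of clone or degree of differentiation. No forkhead gene was called between EZH2-/-/EZH1-/- and EED-/- cells in limma, where 0.0314% of all genes were called higher and 0.0576% lower. At an unadjusted p under 0.05 there were 2, FOXQ1 and FOXM1, of 29 tested, and 20.1% of all genes. The EZH2-/-/EZH1-/- samples lay apart in some genes, such as FOXQ1 at 39.48 and 12.46 TPM. The lack of a call therefore does not show that these lines were alike. SUZ12-/- cells differed from EED-/- cells in 4, 1 higher and 3 lower, where 3.54% and 2.58% of all genes were called. FOXF1 was higher, at 1.70 ± 0.31 (adjusted p = 0.0032). FOXC2, at -2.57 ± 0.32 (adjusted p = 0.00031), FOXQ1, at -2.56 ± 0.42 (adjusted p = 0.0017), and FOXL2, at -1.93 ± 0.30 (adjusted p = 0.0012), were lower. Against EZH2-/-/EZH1-/- cells, SUZ12-/- cells were higher in FOXF1 by 2.17 ± 0.31 (adjusted p = 0.00099) and lower in FOXC2, at -2.62 ± 0.32 (adjusted p = 0.00035), with 3.32% and 1.14% of all genes called. FOXF1 and FOXC2, 56.3 kb apart, thus differed in opposite directions between the same lines. FOXL1, next to FOXC2, had differences of -1.33 ± 0.27 and -1.32 ± 0.27, below the fold required.

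These differences between null lines rested on 2 samples each. Without 1 of the 4 samples, the call of FOXF1 and of FOXQ1 between SUZ12-/- and EED-/- cells was lost whichever sample was left out, although the differences stayed at 1.51 to 1.90 and -2.63 to -2.50, and only that of FOXC2 was kept each time. With a pseudocount of 0.1, FOXC2 (-3.12, adjusted p = 0.013 in limma) and FOXF1 (1.82, adjusted p = 0.031) lost their calls between these lines, as they did against EZH2-/-/EZH1-/- cells, and FOXQ1 and FOXL2 kept theirs. FOXL2 lost its call without the first EED-/- sample or either SUZ12-/- sample, with differences of -2.03 to -1.57. Between SUZ12-/- and EZH2-/-/EZH1-/- cells, FOXF1 lost its call without either SUZ12-/- sample (2.09 and 2.24) and FOXC2 without the first (-2.49). Leaving out an EZH2-/-/EZH1-/- sample brought calls for FOXO4 (1.69, without the first) and FOXQ1 (-2.22, without the second), and FOXQ1 was called lower in EZH2-/-/EZH1-/- than in EED-/- cells without the first (-1.93).

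DOX withdrawal gave forkhead levels at successive days after the EED transgene was switched off. Levels of the DOX series and of the lines are set side by side without a test, and 33 gene symbols differ between the files of the 2 sets. With 1 sample a day there is no test, and a gene is described as at least 3-fold above or below the DOX sample on (TPM + 1). Of 31 forkhead genes with 1 TPM or more in any of the 7 samples, 3 were past this fold above DOX at day 8, 3 at day 12, 4 at day 16, 9 at day 20, 12 at day 24 and 15 at day 28. Among all 19011 genes kept, the shares were 2.78%, 2.84%, 3.81%, 9.07%, 12.9% and 17.9%. The early counts depend on the pseudocount: with 0.1 in place of 1 they were 8, 13, 10 and 14 at days 8, 12, 16 and 20, so the days at which low genes passed the fold hold for this scale only. The share of all genes was not counted with the pseudocount of 0.1, so those counts cannot be set against a background. Below DOX there were 0, 0, 1, 1, 2 and 2 forkhead genes, and 0.589%, 0.4%, 0.894%, 2.69%, 4.67% and 5.61% of all genes. The median log2 change over the 31 genes went from 0.35 at day 8 to 1.57 at day 28, and over all genes from 0.16 to 0.40.

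FOXC1, FOXD1 and FOXP1 were past the fold at day 8. FOXC1 was 0.11 on DOX, then 3.04, 4.64, 7.36 and 49.43 at days 8 to 20 and 4.76 and 2.86 at days 24 and 28. It thus peaked at day 20, above any value in the knockout lines, where it did not exceed 4.04. FOXD1 was 0.66 on DOX and 8.05, 10.71, 3.12, 13.85, 28.05 and 8.89 at the following days, above the lowest value of the null lines, 7.97, at every day except day 16. FOXP1 was 3.69 on DOX and 7.13 to 21.27 without it.

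FOXQ1 and FOXF2 passed the fold at day 16, and both at day 12 with a pseudocount of 0.1. FOXQ1 was 0.13 on DOX and 0, 1.24, 6.03, 25.83, 39.67 and 135.03 from day 8 to day 28. FOXF2 was 0.1 on DOX and 0.29, 1.5, 2.88, 12.08, 19.94 and 47.65. Both genes were higher at each day than at the one before from day 12 on, and their last values were above those of every null line.

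On chromosome 16, FOXF1 and FOXC2 passed the fold at day 20 and FOXL1 at day 24, but the order against chromosome 6 depended on the scale. With a pseudocount of 0.1 FOXL1 passed at day 8 and FOXC2 at day 12, and with a 2-fold limit both passed at day 12, whereas FOXF1 passed at day 20 in each case. FOXF1 was 0.06 on DOX, 0.27, 0.13 and 0.29 at days 8, 12 and 16, and 6.8, 28.86 and 7.77 at days 20, 24 and 28. FOXC2 was 0.09 on DOX and 0.39, 1.6, 1.79, 4.27, 34.03 and 17.53 thereafter, and FOXL1 was 0.12 on DOX and 1.12, 2.03, 1.13, 1.26, 8.74 and 7.09. All 3 were highest at day 24, as was FENDRR with 6.08. At that day FOXF1 and FOXC2 were both above their highest values in the knockout lines, 27.9 and 17.8.

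A last set passed the fold between days 20 and 28. FOXL2 was 0.54 on DOX and 1.96, 2.79, 1.69, 3.89, 5.6 and 6.82. FOXP2 was listed at 0 on DOX and was 0.15, 1.21, 0.89, 3.63, 2.44 and 3.38. FOXS1 was 0.71 on DOX and 0.5, 0.73, 0.41, 1.06, 6.08 and 3.77. These stayed below 7 TPM throughout. FOXE1 was listed at 0 on DOX and was 0.91, 0.4, 0.37, 0.23, 1.75 and 3.35, past the fold only at day 28. FOXP4 was 13.92 on DOX and 27.27, 23.42, 18.49, 29.72, 60.87 and 65.06, and FOXK1 was 2.6 and 3.91, 5.46, 4.3, 5.69, 10.28 and 9.71. FOXO3 was 4.17 on DOX and 8.7, 10.2, 9.65, 10.38, 12.56 and 18.49.

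FOXD3 and FOXM1 were below their DOX values from different days on. FOXD3 was 17.04 on DOX, 13.83, 21.04 and 7.31 at days 8, 12 and 16, and 0.39, 0.13 and 0.5 from day 20. FOXM1 was 93.37 on DOX and 57.7, 84.65, 107.17 and 104.41 up to day 20, and only then 35.5 and 23.86. At day 20, therefore, FOXD3 was near 0 while FOXM1 was above its DOX value. The sum of the 12 pluripotency markers was 5501 on DOX, 5959 to 6899 at days 8 to 16, 2952 at day 20 and 565 and 557 at days 24 and 28. The sum of the 16 mitotic genes was 2252 on DOX, 1572 to 2185 up to day 20, and 888 and 538 thereafter. The mesenchyme and vessel markers summed to 86.3 on DOX, 159 to 248 at days 8 to 16, 813 at day 20 and 5518 and 3972 at days 24 and 28. The part of these marker levels in the forkhead values was not tested.

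Forkhead genes that were not called in the lines include one that was highest midway, named after its values were seen. FOXB1 was 2.29 on DOX, 6.75, 10.51 and 12.09 at days 8, 12 and 16, 4.11 at day 20 and 0.09 and 0.93 at days 24 and 28. Its highest value in the 12 line samples was 3.32. FOXJ1 was 9.5 on DOX, 1.68 at day 16 and 27.74 at day 28, and FOXJ2 and FOXJ3 were past the fold only at day 28, at 23.62 and 49.14. FOXO1, FOXO4, FOXO6, FOXK2, FOXN2, FOXN3 and FOXP3, and FOXD2, FOXE3 and FOXN4, which did not exceed 2.28 TPM, were past the fold at no day. FOXI1 did not exceed 0.27, and FOXN1 was listed at 0 at every day without DOX.

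**Figure D3:**
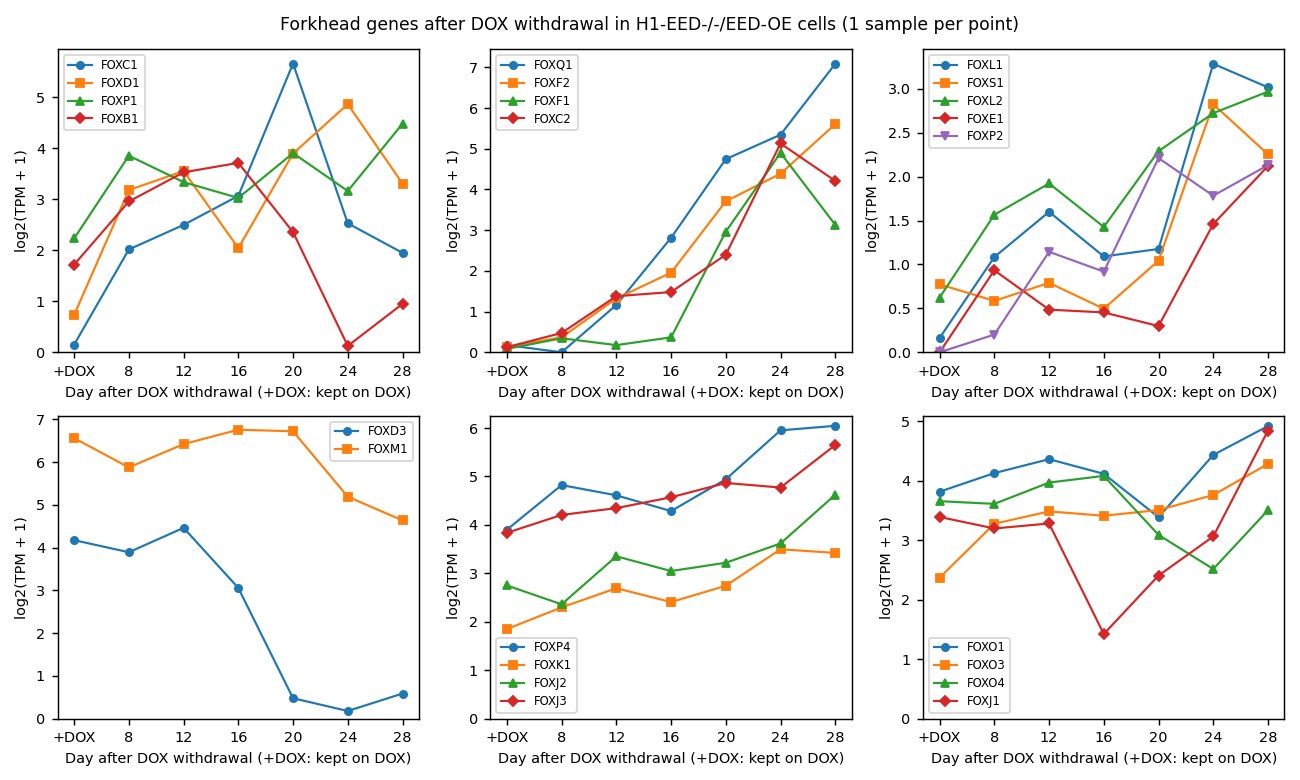
Lines give log2(TPM + 1) of forkhead genes in the DOX sample and at 6 days without DOX, 1 sample per point, with no error. FOXC1 peaks at day 20, FOXQ1 and FOXF2 climb to day 28, FOXF1 and FOXC2 peak at day 24, FOXD3 is near 0 from day 20 and FOXM1 declines after it.

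Promoter sequence was described for the 25 forkhead genes with a RefSeq window, which runs from 250 bases before to 50 bases after a start. FOXC2, FOXE3, FOXF1, FOXJ1, FOXL1, FOXM1, FOXN2 and FOXS1 had no window. Of these, FOXC2, FOXF1, FOXL1, FOXM1 and FOXS1 were called between null and retaining lines, so the chromosome 16 group is left out. Together the 25 genes have 36 windows, since some genes have several starts. With CpG-rich defined as over 50% GC and an observed to expected CpG ratio over 0.6, 23 of the 36 windows were CpG-rich, or 63.9%, against 46.8% of all 35116 windows. At least 1 such window was found for 19 of the 25 genes. The median ratio was 0.837 over the forkhead windows and 0.579 over all windows. Genes that rose and genes that did not were both among the CpG-rich, with ratios of 1.02 for FOXC1, 0.957 for FOXF2, 0.837 for FOXQ1, 0.881 for FOXD3 and 1.19 for FOXK2. FOXB1 (0.428), FOXI1 (0.461), FOXN1 (0.409), FOXN4 (0.574), FOXP2 and FOXP3 had no CpG-rich window, and of these FOXI1, FOXN1 and FOXN4 were not tested and only FOXP2, with ratios of 0.0947 and 0.309, was called. The FOXP2 windows begin at chr7:114414565 and chr7:114426252. The GENCODE start of the gene, at chr7:114086327, has no window and was not described. A forkhead motif, TGTTTAC on either strand (GTAAACA on the other), was in 2 of the 36 windows, 1 each of FOXO4 and FOXP1, and in 3.42% of all windows.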

How the data were processed

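RNA-seq libraries were made by the authors with a TruSeq RNA kit from H1 cells and their derivatives (19 samples). Per the labels and methods, reads were mapped to GRCh38 mRNA with Bowtie2 and quantified with RSEM. The deposited values were TPM per gene, rounded to 2 decimals, with Ensembl identifiers and symbols. Samples were joined by identifier, as 33 symbols differed between the knockout and DOX files. The authors' count test (edgeR) was replaced by limma 3.58.1 in R 4.3.3 because TPM are not counts. A mean per line was fitted on log2(TPM + 1) with trend and robust moderation over 19100 genes with TPM of 1 or more in 2 or more of the 12 samples, and all p-values were adjusted by Benjamini-Hochberg over these genes. Fold changes on this scale understate changes of low genes. On simulated data for EED-/- against WT, 62% of genes changed by 2 on the log2 scale and 94% of those changed by 3 were called. The changed genes were drawn only from genes clearly expressed in WT cells. These shares therefore do not cover genes near 0 in WT, such as FOXF1 and FOXF2. Locations came from GENCODE 44 and promoters from RefSeq (GRCh38.p14). Every forkhead gene was accounted for, those called in the lines were given sample by sample, and up to 3 genes with the largest changes were named per gene list. The forkhead genes and lists were chosen with earlier results of these data known. The alternatives tried were a pseudocount of 0.1, other filters, median-ratio scaling, a false discovery rate of 5%, a test against the 3-fold itself, the compared lines alone and leaving out each sample. Tables and plots were made in Python 3.11.15 with pandas 2.3.3 and matplotlib 3.10.9.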

Additional observations from a re-analysis of the deposited data

Results flagged for a closer look

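These 6 values are flagged because a test of the difference between 2 PRC2-null lines was past the threshold (limma, log2(TPM + 1) scale, 2 samples a line). In SUZ12-/- against EED-/- cells, FOXC2 was -2.57, FOXQ1 was -2.56, FOXL2 was -1.93 and FOXF1 was 1.70. In SUZ12-/- against EZH2-/-/EZH1-/- cells, FOXC2 was -2.62 and FOXF1 was 2.17. Adjusted p-values ranged from 0.00031 to 0.0032. FENDRR, beside FOXF1, was 22.68 and 23.86 TPM in SUZ12-/- cells and 0.63 to 2.25 TPM in the other null lines, and the sum of mesenchyme and vessel markers was 14172 and 14402 in SUZ12-/- and 2278 to 7573 in the other null samples, a contrast that COL3A1 carried: without it the sums were 3117 and 3123 in SUZ12-/- and 1317 to 5503 in the other null samples. PECAM1 went the other way, with 25.52 and 20.98 TPM in SUZ12-/- and 153.49 and 85.21 TPM in EED-/- cells. Their part in the differences was not tested. Of the 4 genes, FOXC2 kept its call between SUZ12-/- and EED-/- cells without any 1 of the 12 samples but lost it with a pseudocount of 0.1, where FOXQ1 and FOXL2 kept theirs.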

How the results depend on the processing

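No paired analysis was possible because the numbers in the labels belong to separately made knockout lines and pair no samples across lines. A line here is a genotype, and the sources used do not say whether the samples of a line came from different clones. Of 241 recomputed differences of the 14 genes called between PRC2-null and retaining lines, 229 kept direction and call, none reversed and 12 lost the call, 8 of them FOXK1 and, in the test against the 3-fold itself, FOXC1, FOXE1, FOXP2 and FOXP4. Except for FOXK1 and FOXP4, the genes called higher had passed the filter only through PRC2-null samples. Their direction was thus fixed beforehand, and that none reversed is a description and no independent support. Of 194 recomputed counts, 161 stayed within 1.5 times. With TPM of 1 or more required in all 12 samples, which leaves 14 forkhead genes, 4 were called in EED-/-, 2 in SUZ12-/- and 2 in EZH2-/-/EZH1-/- cells against WT, 3 between null and retaining lines, 0 between SUZ12-/- and EED-/- and 0 between SUZ12-/- and EZH2-/-/EZH1-/- cells. Of all 12308 genes then tested, 1694 were called higher and 763 lower in EED-/- and 1160 and 687 in SUZ12-/- cells against WT. The numbers were 1103 and 747 in EZH2-/-/EZH1-/- cells against WT and 1199 and 613 between null and retaining lines. They were 160 and 254 between SUZ12-/- and EED-/- cells and 133 and 108 between SUZ12-/- and EZH2-/-/EZH1-/- cells. Tested against the 3-fold itself, the same comparisons gave 8, 3, 6, 9, 0 and 0 forkhead genes. Among all 19100 genes, in the same order, 917, 901, 577, 1184, 113 and 110 were called higher. Those called lower were 279, 179, 183, 356, 9 and 6. At a false discovery rate of 5% with no fold, null against retaining gave 23 forkhead genes, SUZ12-/- against EED-/- 9 and against EZH2-/-/EZH1-/- 7. Among all 19100 genes, 8370 were then called higher and 4728 lower for null against retaining. The numbers were 1758 and 1978 for SUZ12-/- against EED-/- and 1605 and 1123 against EZH2-/-/EZH1-/- cells. A pseudocount of 0.1 gave 2 and 0 forkhead genes for the last pair of comparisons. Among all genes it called 552 higher and 376 lower for SUZ12-/- against EED-/- and 405 and 167 against EZH2-/-/EZH1-/- cells. With only the lines compared, EZH2-/-/EZH1-/- against WT gave 5 forkhead genes and SUZ12-/- against EZH2-/-/EZH1-/- 0, with fewer samples to estimate the spread. Among all genes, 801 were then called higher and 306 lower in the former comparison and 3 and 0 in the latter. The cause of the other changes was not tested. Leaving out 1 sample in turn gave 12 to 16 in EED-/-, 12 in SUZ12-/- and 12 to 15 in EZH2-/-/EZH1-/- cells against WT, 13 to 14 for null against retaining, 1 to 4 for SUZ12-/- against EED-/-, 0 to 1 for EZH2-/-/EZH1-/- against EED-/- and 0 to 3 for SUZ12-/- against EZH2-/-/EZH1-/- cells, where a lone sample is assumed to vary like the other lines. After DOX withdrawal, a pseudocount of 0.1 gave 8, 13, 10 and 14 forkhead genes above the fold at days 8, 12, 16 and 20, and a 2-fold limit gave 10, 7 and 16 at days 12, 16 and 20. The shares of all genes were not counted under these settings, so the counts have no background beside them. Without read counts, depth and its limits are unknown, and each day of the DOX series rests on 1 sample.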

Other observations

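Among 16 other forkhead genes, 7 were tested between PRC2-null and retaining lines, and FOXA2, at 4.16 ± 0.17, and FOXA1, at 3.90 ± 0.22, both endoderm pioneer factors, were called higher. FOXA3 went the other way, at -1.38 ± 0.13, and was not called. It was 18.49 to 40.25 TPM in retaining and 7.39 to 10.4 TPM in null samples. FOXH1, the partner of Nodal-activated SMAD proteins, fell by 4.35, from 60.9 to 104.71 TPM in retaining to 1.12 to 4.78 TPM in null samples. After DOX withdrawal FOXA2 was 0.09 on DOX, 5.2 at day 12 and 89.72 at day 28, and FOXH1 was 136.16 at day 16 and 2.77 at day 24. Of 11 neural crest markers tested, 4 were called higher and 1 lower, led by MSX1 at 4.83, SNAI2 at 4.70 and TFAP2A at 4.44. SOX10, a defining marker, was 1.57 to 3.19 TPM in retaining and 0.19 to 0.92 TPM in null samples.

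Another gene was picked after its values were seen. CAT, the catalase gene on the list linked to FOXO activity, was 5.32 to 49.9 TPM in the 12 samples of the knockout and WT lines, but it was listed at 0 in 5 of the 7 samples of H1-EED-/-/EED-OE cells and at 0.2 on DOX and 0.35 at day 28. FOXD1-AS1 was likewise listed at 0 in 5 of these 7 samples, while FOXD1 was 3.12 to 28.05 TPM without DOX.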
